A study of Homo sapiens with 34 samples.

Results

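SNU398 is an established human hepatocellular carcinoma line, and the arrays described here follow it from day 10 to day 17 after a short course of SGI-110. All the 4 arrays used for the main comparison, 2 titled day 17 and 2 titled day 10, come from cells that received 3 daily doses of 100 nM SGI-110, and they were chosen by title out of 34 arrays in the series. The other SNU398 arrays are 2 each from untreated cells and from days 3 and 24 of the treated culture. The lines HepG2 and SNU475, given the same course and sampled on the same days, serve as the setting for comparison with 2 arrays each at day 17 and day 10. No untreated arrays of day 10 or day 17 were analysed here, so time since the last dose and time in culture advance together and cannot be told apart. Nothing in the labels tells if arrays of 1 day were grown as separate cultures, and every p-value therefore rests on a spread between samples that could be technical.

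SGI-110 is a dinucleotide that releases decitabine, a cytidine analogue that is built into newly made DNA and traps DNA methyltransferases there. DNA copied while these enzymes are depleted loses methylation, and genes that methylation keeps silent, such as germline genes on the X chromosome, are known to become active. After a transient dose, dividing cells make new methyltransferase, and methylation can be written back over the following weeks.

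Levels are normalized log2 intensities, and a difference is a log2 fold change of day 17 over day 10 with the standard error of the fit (n = 2 arrays on each day). Of 15297 genes tested with limma, 4187 (27.4%) passed an adjusted p of 0.05, a pass being named a call below. Among all genes 12% were called higher at day 17 and 15.4% lower, which were 1832 and 2355 genes, and 540 of the calls were at least 2-fold. The counts of each gene list below are to be read against the 12% and the 15.4%. The arrays of the 2 days did not overlap for 4182 of the called genes, so a call nearly implies separate arrays. Where separate arrays are stated below for a called gene, they describe it and are no further evidence. The median change over all genes tested was -0.015. A gene counted as above background on a day when both arrays exceeded 6.97. Where only 1 day passed, the size is given as "at least N-fold". It sets the brighter day's mean against the higher, on each array, of that threshold and the gene's own value. Of the genes tested 12412 were above background on at least 1 of the days, and 117 calls lay outside these. The shares called among genes above background are thus larger than the 12% and the 15.4%, which matters for lists nearly all above background.

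Replicates were alike, with Pearson's r across genes of 0.9943 between the day 17 arrays and 0.9947 between the day 10 arrays. Genes above background numbered 12291 and 12293 on day 17, and 12416 and 12428 on day 10. Across genes, which are not independent replicates, the day 17 arrays correlated with those of day 10 at 0.9753 to 0.9764. Their correlations with day 3 were 0.9852 to 0.9893 and with day 24 they were 0.9873 to 0.9882. No array stood apart from its replicate.

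**Figure D1:**
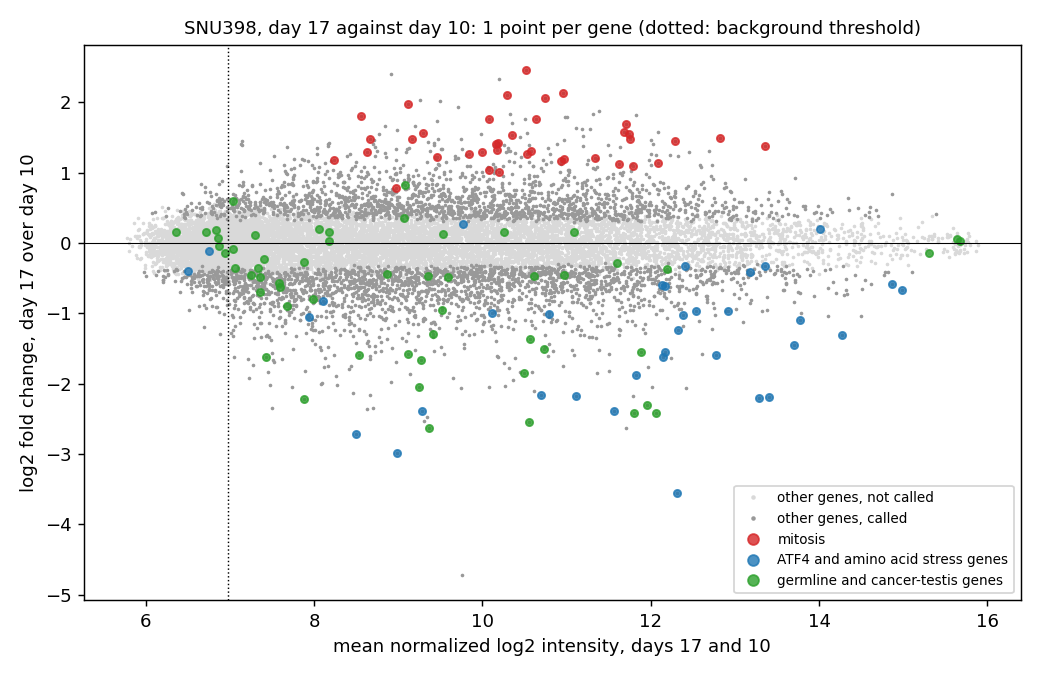
Log2 fold change of day 17 over day 10 in SNU398 (vertical axis) against the mean normalized log2 intensity of both days (horizontal axis), 1 point per gene. All 38 mitosis genes (red) lie above 0, between 0.78 and 2.46, and 33 of 35 genes of the ATF4 list (blue) lie below 0.

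Mitotic transcripts were higher at day 17 throughout their list. All 38 measured genes of the mitosis list were called higher at day 17 (median 1.41), against 12% of all genes tested. These genes encode the cyclins, kinases, motors and checkpoint proteins that a cell makes as it enters and leaves mitosis. KIF20A, a kinesin needed for cytokinesis, read 11.68 and 11.81 on day 17, against 9.34 and 9.24 on day 10. Both day 17 arrays were far above both day 10 arrays, a difference of 2.46 ± 0.12 or 5.5-fold (adjusted p = 9.36e-15). HMMR, a spindle-associated hyaluronan receptor, read 11.26 and 11.43 on day 17, against 9.16 and 9.31 on day 10, with 2.11 ± 0.13. DLGAP5, which stabilises spindle microtubules, read 12.07 and 11.98 on day 17, against 9.72 and 10.07 on day 10, with 2.13 ± 0.14. The days were separate for both genes, and a second probe of each agreed in sign. The cyclin CCNA2, which drives both replication and mitotic entry, read 11.80 and 11.73 on day 17, against 9.74 and 9.67 on day 10, and it was 4.17-fold higher at day 17. CDCA3, a trigger of mitotic entry, was 3.95-fold higher and PLK1, the polo kinase of mitosis, 3.48-fold. MKI67, which codes for the proliferation antigen Ki-67, read 9.12 and 8.53 on day 17, against 7.54 and 7.76 on day 10. It rose by less than those genes, 1.18 ± 0.16 (adjusted p = 1.71e-06), with the day 17 arrays further apart than those of day 10. PIMREG, NCAPG and KIFC1, a mitotic regulator, a condensin subunit and a spindle motor outside the list, were 3.8-, 3.66- and 3.56-fold higher.

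In RNA of a whole culture, more dividing cells and more transcript per cell cannot be told apart. The median level of the mitosis list was 11.27 and 11.16 on day 17, against 9.72 and 9.64 on day 10. It was 11.36 and 11.34 on day 3 and 11.24 and 11.09 on day 24. The low point of the list among the treated days was thus day 10, and day 17 lay close to days 3 and 24. Untreated cells read 11.18 and 11.17, on arrays whose deposited values follow another percentile scale, so they are set beside the others only as levels.

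Promoters of mitotic genes are known for a pair of elements, a CCAAT box, through which they are activated, and a cell cycle homology region, through which they are held silent outside the late cell cycle. Sequences from RefSeq (GRCh38.p14) were matched by symbol, with a promoter for 32 of the 38 mitosis genes and for 11969 of all genes tested. In the 250 bases before the start, CCAAT on either strand was found in 26 of the 32 (81.2%) against 35% of all, and TTTGAA on either strand in 17 (53.1%) against 9.51%. In the list of replication genes 18 of 33 promoters (54.5%) held CCAAT and 1 (3.03%) held TTTGAA. The CCAAT box was also found in 53.3% of promoters of the ATF4 list and 63.2% of those of antigen presentation, lists described below. In the stretches shown the motifs do not overlap each other, but copies of CCAAT on opposite strands overlap once in HMMR. A match is a description of letters and not of a bound site. The stretches of 5 genes that hold both motifs are shown, with CCAAT and TTTGAA, or their complements, in capitals: DLGAP5 at chr14:55191593-55191732 (minus strand), HMMR at chr5:163460486-163460625 (plus strand), PLK1 at chr16:23678736-23678875 (plus strand), CCNB2 at chr15:59104993-59105132 (plus strand) and CDC20 at chr1:43358801-43358940 (plus strand).
DLGAP5: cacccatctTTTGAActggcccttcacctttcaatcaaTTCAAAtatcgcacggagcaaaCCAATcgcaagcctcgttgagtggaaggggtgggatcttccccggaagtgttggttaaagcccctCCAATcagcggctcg
HMMR: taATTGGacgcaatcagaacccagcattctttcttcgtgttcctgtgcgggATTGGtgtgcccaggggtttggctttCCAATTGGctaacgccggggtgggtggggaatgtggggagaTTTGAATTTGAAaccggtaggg
PLK1: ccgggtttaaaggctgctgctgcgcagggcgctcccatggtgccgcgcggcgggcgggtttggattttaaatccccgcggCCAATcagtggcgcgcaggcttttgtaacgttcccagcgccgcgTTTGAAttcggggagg
CCNB2: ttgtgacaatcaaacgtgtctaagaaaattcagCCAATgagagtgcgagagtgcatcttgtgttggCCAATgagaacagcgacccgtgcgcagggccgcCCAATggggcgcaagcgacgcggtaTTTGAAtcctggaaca
CDC20: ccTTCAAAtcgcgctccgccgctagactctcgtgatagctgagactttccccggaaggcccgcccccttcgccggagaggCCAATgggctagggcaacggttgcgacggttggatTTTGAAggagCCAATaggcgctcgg
CCNB2 codes for a mitotic cyclin and CDC20 for an activator of the anaphase-promoting complex. In each of these stretches a capital TTTGAA lies downstream of a CCAAT box, except that DLGAP5 has its TTTGAA copies upstream.

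Genes of DNA replication and nucleotide synthesis rose as well. Of 35 measured, 31 were called higher, none lower and 4 did not pass (median 0.87), against 12% of all genes higher. RRM2, the regulated subunit of ribonucleotide reductase, read 9.98 and 10.24 on day 17, against 7.67 and 7.75 on day 10. It was 5.26-fold higher (2.40 ± 0.18, adjusted p = 3.91e-11), the second largest increase of any gene by size. RRM1, the other subunit, read 12.71 and 13.05 on day 17, against 11.71 and 10.88 on day 10, with more spread between replicates on day 10 but no overlap of the days (1.58 ± 0.19). TYMS, which makes thymidylate, read 12.70 and 12.75 on day 17, against 10.79 and 11.04 on day 10, a difference of 1.81 ± 0.12. Primase PRIM1 (1.79 ± 0.15), the helicase loader CDC45 (1.63 ± 0.12) and thymidine kinase TK1 (1.35 ± 0.12) also rose. NUDT1, which removes oxidised nucleotides and is no member of the list, was 3.57-fold higher, with 0.94 on its other probe. The genes that did not pass were GINS1, ORC6, E2F1 and CCNE1, between -0.14 and 0.21, named after their values were seen.

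The list of CDK inhibitors, D cyclins and quiescence genes was lower in part. Of 14 measured 9 were called lower, 1 higher and 4 did not pass (median -0.53), against 15.4% of all genes lower, and 5 were called lower without replicate 2 of either day. BTG1, an antiproliferative factor, read 10.94 and 11.09 on day 17, against 12.21 and 12.28 on day 10, and both day 17 arrays were lower (-1.23 ± 0.12). TOB1, of the same family, fell by 1.09 ± 0.15 and the cyclin CCNG2, a marker of quiescent cells, by 0.79 ± 0.13. The G1 cyclins split, with CCND1 (-0.75 ± 0.12) and CCND2 (-0.73 ± 0.15) lower and CCND3 (0.71 ± 0.12) higher. CDKN1A, which encodes p21, read 10.33 and 10.38 on day 17, against 10.04 and 9.97 on day 10 and did not pass (adjusted p = 0.0547), and neither did the inhibitor CDKN2D or the pocket protein RBL2, named after their values were seen. Among 28 measured p53 targets 3 were called higher, 7 lower and 18 did not pass. GDF15, a secreted stress cytokine, fell by 1.59 ± 0.16, the death receptor gene TNFRSF10B by 1.36 ± 0.13 and TP53INP1 by 1.11 ± 0.13, while TP53I3 rose by 0.85. A further probe of TNFRSF10B read 0.30, against the direction of the one used, and another of TP53I3 read 0.0049. Without replicate 2 of either day, 1 of the 3 higher p53 targets was called.

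Histone transcripts, mostly of the replication-dependent clusters, were lower at day 17 in large part. Of 17 measured, 12 were called lower, none higher and 5 did not pass (median -0.96), against 15.4% of all genes lower. Such histone messages normally end in a stem-loop without a poly(A) tail, and labelling with oligo-dT, as in the MessageAmp method, is known to favour copies that carry a tail. H2AC18 read 10.48 and 10.39 on day 17, against 12.27 and 12.29 on day 10, with -1.85 ± 0.15. H4C8 read 9.84 and 9.49 on day 17, against 11.53 and 11.48 on day 10, with -1.84 ± 0.16. The days were well apart for both, and H2AC6 (-1.71 ± 0.18), H2AC8 (-1.25 ± 0.21), H2BC4 (-1.22 ± 0.15) and H2BC6 (-1.04 ± 0.16) fell too. H2AJ, a histone known to be made independently of replication, was among the 12 lower calls (-0.71), named after its value was seen. Sequences of clustered histone genes are close to each other, so a probe can read more than 1 of them.

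The machinery of DNA methylation, the pathway that SGI-110 acts on, was partly higher at day 17. Of 14 measured genes 6 were called higher, none lower and 8 did not pass (median 0.35), against 12% of all genes higher. DNMT1, the maintenance methyltransferase and the main protein trapped by decitabine, read 13.91 and 13.91 on day 17, against 13.39 and 13.04 on day 10. Both day 17 arrays lay above both of day 10 (0.69 ± 0.13, adjusted p = 0.000203). UHRF1, which guides DNMT1 to newly copied DNA, read 12.53 and 12.77 on day 17, against 12 and 11.84 on day 10 (0.73 ± 0.14). The chromatin remodeller HELLS read 10.64 and 10.59 on day 17, against 9.61 and 9.49 on day 10, the largest difference of the list (1.07 ± 0.13). DNMT3A, a de novo methyltransferase, was not above background on day 10 and was at least 1.43-fold higher at day 17. The de novo enzyme DNMT3B read 10.04 and 9.99 on day 17, against 9.76 and 9.85 on day 10 and did not pass (adjusted p = 0.213). TDG, a glycosylase of active demethylation (0.66 ± 0.12), and the methyl-CpG reader MBD2 (0.66 ± 0.16) rose. These levels are of transcripts alone, and protein and methylation itself were not measured on the arrays.

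**Figure D2:**
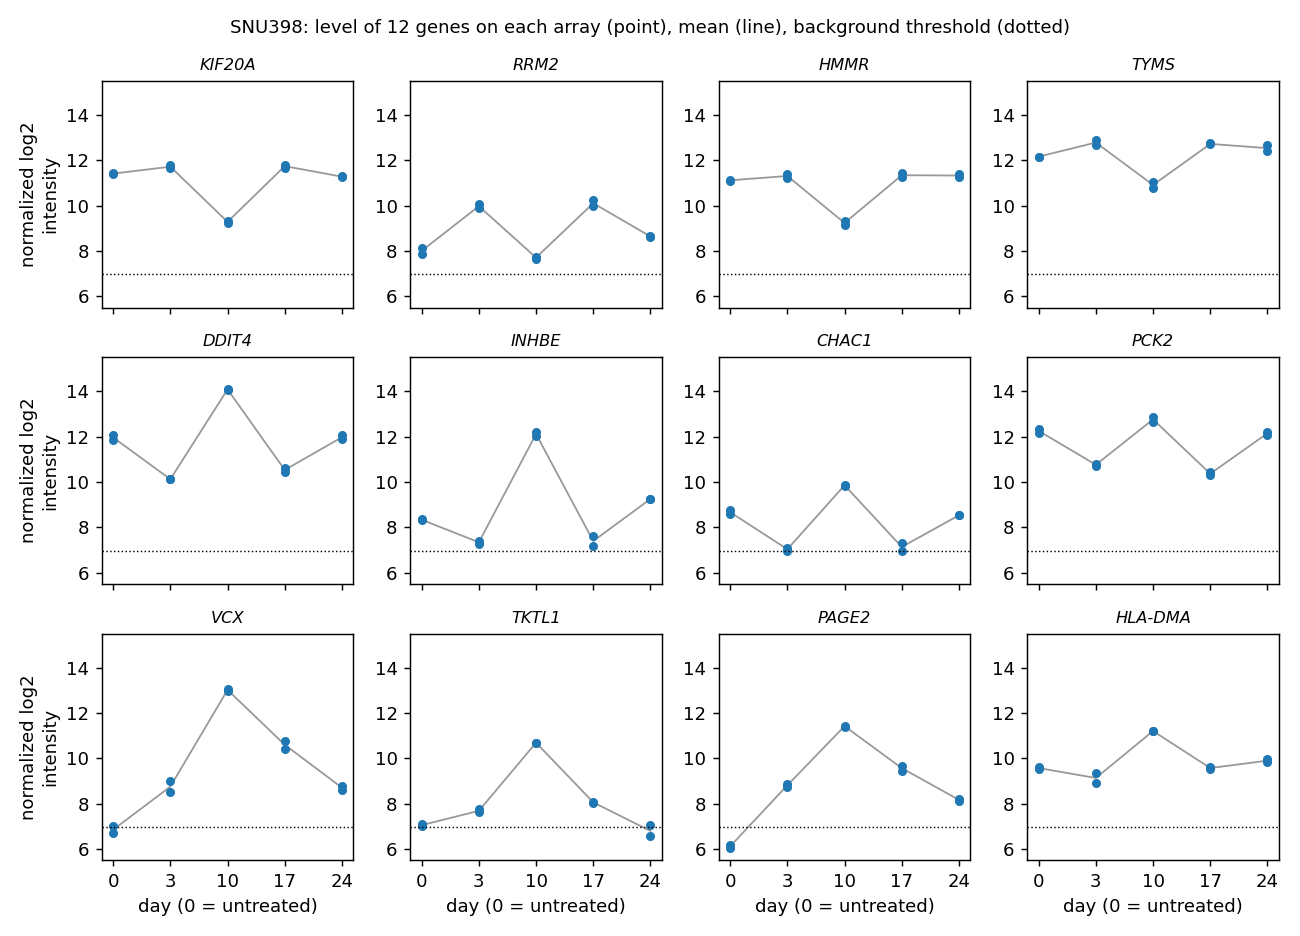
Normalized log2 intensity (vertical axis) of 12 genes on each SNU398 array by day (horizontal axis, 0 being untreated), with lines through daily means and a dotted background threshold of 6.97. The 4 cell cycle genes in the top row are lowest among treated days at day 10, and the 8 below are highest there.

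Genes of the stress programme of the transcription factor ATF4 were lower at day 17. ATF4 is translated when amino acids run short or unfolded protein accumulates, and its targets make amino acid transporters, tRNA synthetases and enzymes of serine and one-carbon metabolism. Of 35 measured genes of this list, 31 were called lower, none higher and 4 did not pass (median -1.06), against 15.4% of all genes lower. DDIT4, a stress-induced inhibitor of mTORC1, read 10.46 and 10.60 on day 17, against 14.07 and 14.10 on day 10. Both day 17 arrays lay far below both day 10 arrays, 11.8-fold (-3.56 ± 0.11, adjusted p = 2.81e-19). CHAC1, which degrades glutathione, read 6.97 and 7.29 on day 17, against 9.83 and 9.88 on day 10, so that it was barely above background at day 17 (-2.72 ± 0.16). The stress cofactor NUPR1 read 7.41 and 7.59 on day 17, against 10.56 and 10.40 on day 10 (-2.98 ± 0.14).

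Further members of the ATF4 list fell by similar amounts. PCK2, the mitochondrial PEP carboxykinase, read 10.44 and 10.29 on day 17, against 12.65 and 12.87 on day 10, and it fell by 2.40 ± 0.12 with -2.00 on a second probe. SESN2, a leucine sensor, fell by 2.39 ± 0.13. TRIB3, a pseudokinase that feeds back on ATF4, read 12.19 and 12.19 on day 17, against 14.42 and 14.36 on day 10, and fell by 2.20 ± 0.13. DDIT3, which encodes the factor CHOP, read 11.02 and 10.75 on day 17, against 12.66 and 12.86 on day 10, and fell by 1.88 ± 0.13. INHBE, the gene of an activin subunit made in liver and induced by stress, was outside the list and had the largest change of any gene tested. It read 7.60 and 7.18 on day 17, against 12.22 and 12.01 on day 10, so that both day 17 arrays were near background where day 10 was high (26.4-fold lower, -4.72 ± 0.13, adjusted p = 7.16e-21). Members that did not pass were ALDH1L2, FGF21, AARS1 and the cystine transporter SLC7A11, from -0.39 to 0.26, named after their values were seen. ALDH1L2 and FGF21 were above background on neither day. The list median was 11.51 and 11.29 on day 3, 12.91 and 12.87 on day 10, 11.71 and 11.70 on day 17 and 12.54 and 12.31 on day 24. Days 3 and 17 were thus the low days among treated days, and day 24 lay between day 17 and day 10. Untreated cells read 12.38 and 12.32, above days 3 and 17 and below day 10. Their arrays follow the other percentile scale, so these are set beside the others only as levels.

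ATF4 binds with C/EBP factors to a composite element, searched here as TGATGNAA on either strand. It was found in 5 of 30 promoters of the list (16.7%) and in 1.86% of all, those of ATF3, ASNS, CHAC1, FGF21 and AARS1. The upstream stretch of CHAC1 is shown because that gene was among the largest falls, with the complement of the element in capitals, CHAC1 at chr15:40953221-40953340 (plus strand). Of the 5 genes with a match, FGF21 and AARS1 did not pass the test, FGF21 being above background on neither day. Most genes that fell had no match in this window.
CHAC1: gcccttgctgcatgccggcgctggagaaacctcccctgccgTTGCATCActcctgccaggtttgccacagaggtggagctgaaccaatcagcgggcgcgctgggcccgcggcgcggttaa

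**Figure D3:**
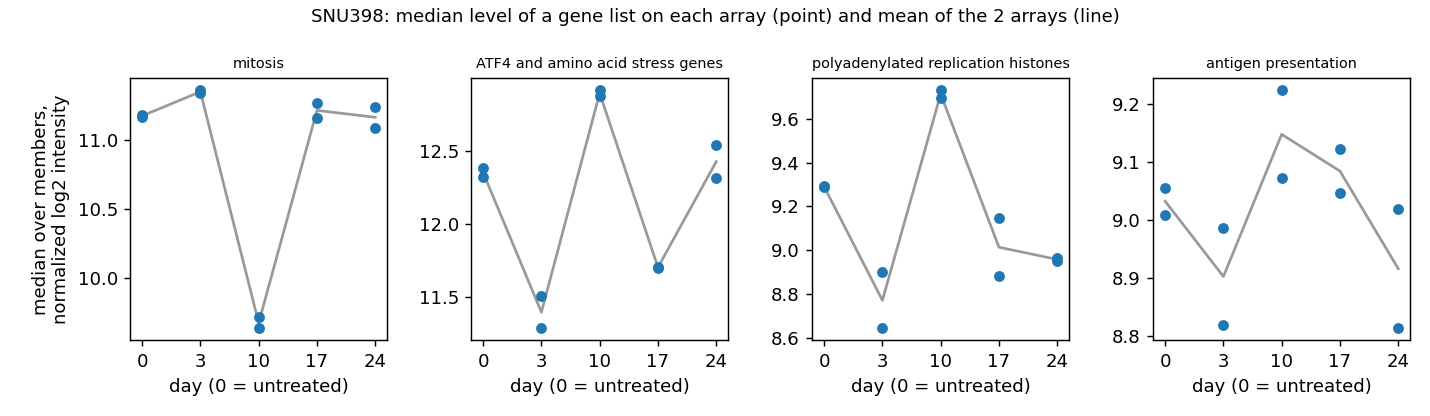
Median normalized log2 intensity over the measured members of 4 lists (vertical axes, each with its own range) on every SNU398 array by day (horizontal axis, 0 being untreated), with lines through the mean of the 2 arrays. The mitosis list is lowest at day 10, the ATF4 and histone lists are highest there, and the arrays of the antigen presentation list overlap between days 17 and 10.

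Other stress responses were called in part. Of 20 measured genes of ER chaperones and the unfolded protein response, 3 were called higher, 7 lower and 10 did not pass. Those that fell included the transcription factor XBP1 (-0.90 ± 0.13), the phosphatase subunit PPP1R15A (-0.88 ± 0.15), which ATF4 also induces, and the cochaperone DNAJB9 (-0.70 ± 0.13). Without day 10 replicate 1 the higher calls of the list numbered 1, and the lower calls numbered 3 or 4 without day 17 replicate 1 or either day 10 array. Among 17 heat shock genes 4 were called higher, 1 lower and 12 did not pass, with CHORDC1 at 0.77 ± 0.14 and HSP90AB1 at 0.35 ± 0.12. HSPE1 was called higher on the probe used (0.79 ± 0.25), whereas its other probe read -0.73, and 1 of the 4 higher heat shock calls was made without either day 10 array or day 17 replicate 2. Immediate early genes, which growth signals and stress switch on within minutes, gave 3 higher, 10 lower and 15 not called of 28. The orphan receptor NR4A2 read 9.63 and 9.42 on day 17, against 11.28 and 11.44 on day 10, and it fell by 1.84 ± 0.17. JUN, a subunit of AP-1, read 9.62 and 9.25 on day 17, against 11.17 and 11.24 on day 10, and it fell by 1.77 ± 0.15. In both genes the days were clear of each other, and ZFP36, an RNA-binding regulator, fell by 0.88 ± 0.14. The ETS factors ETV4 and ETV5 went opposite ways, 0.98 ± 0.15 and -0.73 ± 0.12, and without replicate 2 of either day 1 of the 3 higher calls of this list was made.

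Germline and cancer-testis genes, which in adults are normally expressed in testis and are silenced by promoter methylation elsewhere, were lower at day 17 in large part. Of 55 measured, 30 were called lower, 2 higher and 23 did not pass (median -0.45), against 15.4% of all genes lower. Of the 55, 49 were above background on at least 1 of the days. Without day 17 replicate 2, 19 were called lower. TKTL1, a transketolase-like gene of the X chromosome, read 8.08 and 8.03 on day 17, against 10.69 and 10.68 on day 10. It fell by 2.63 ± 0.16, or 6.19-fold (adjusted p = 3.29e-13). VCX, of a germline family on the X chromosome, read 10.77 and 10.42 on day 17, against 13.07 and 12.96 on day 10, and it fell by 2.43 ± 0.16. Both genes were lower on both day 17 arrays than on either day 10 array. VCX2 (-2.55 ± 0.15), VCX3A (-2.42 ± 0.17) and VCX3B (-2.31 ± 0.15) fell alike, but these paralogues are nearly identical and their probes may read each other's transcripts. TEX101, a germ cell surface protein, was not above background at day 17 and fell at least 4.03-fold. The exceptions called higher were DPPA2, a pluripotency gene not above background at day 10, and TEX15, a meiosis gene, at 0.83, named after their values were seen.

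Levels on the other days are given for 2 of these genes, as the mean ± standard deviation of the 2 arrays of a day. VCX averaged 6.85 ± 0.21 in untreated cells, 8.75 ± 0.33 on day 3, 13.02 ± 0.07 on day 10, 10.59 ± 0.25 on day 17 and 8.70 ± 0.12 on day 24. PAGE2, a cancer-testis gene of the X chromosome, averaged 6.11 ± 0.10, 8.81 ± 0.08, 11.42 ± 0.01, 9.57 ± 0.16 and 8.16 ± 0.07 on the same days. Among these means both genes were highest at day 10, and at days 17 and 24 both lay between that level and the untreated one, which was not tested here. Germline promoters are known to include many with few CpG pairs, and the median was 9.5 CpG pairs in 250 bases over 48 promoters of the list, against 19 over all. The 120 bases before the start of 3 genes that fell are shown with each CpG in capitals, to let their CpG content be seen: VCX at chrX:7843051-7843170 (plus strand), PAGE2 at chrX:55088898-55089017 (plus strand) and PAGE5 at chrX:55220226-55220345 (plus strand).
VCX: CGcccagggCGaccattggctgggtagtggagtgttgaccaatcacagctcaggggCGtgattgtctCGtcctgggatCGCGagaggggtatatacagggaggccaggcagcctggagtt
PAGE2: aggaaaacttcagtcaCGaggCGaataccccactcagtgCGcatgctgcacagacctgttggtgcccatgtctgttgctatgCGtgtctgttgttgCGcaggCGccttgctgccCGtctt
PAGE5: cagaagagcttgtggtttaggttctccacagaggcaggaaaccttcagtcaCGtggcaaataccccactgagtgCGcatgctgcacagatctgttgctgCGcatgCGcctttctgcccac
The windows of 250 bases hold 10, 11 and 9 CpG pairs in VCX, PAGE2 and PAGE5.

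A list of 14 genes had been named in an earlier analysis of the same series for their changes between untreated cells and day 3, so it was chosen on these samples and is no independent evidence of direction. At day 17, 11 of the 14 were called lower than at day 10, none higher and 3 did not pass (median -1.27), against 15.4% of all genes lower. The members had not all moved 1 way by day 3. Their median level was 6.83 and 6.96 in untreated cells, on the other percentile scale, and 10.35 and 10.31 on day 3. Their summed linear level was 54816 and 49458 in untreated cells and 18180 and 19545 on day 3. PAGE2 read 9.68 and 9.45 on day 17, against 11.40 and 11.43 on day 10, and it fell by 1.85 ± 0.16. PAGE2B read 11.15 and 11.06 on day 17, against 12.54 and 12.78 on day 10, and it fell by 1.56 ± 0.17, and PAGE5 fell by 1.37 ± 0.16. All the 3 are cancer-testis genes of 1 family, and their probes may share transcripts. The autophagy gene MAP1LC3A read 9.66 and 9.35 on day 17, against 10.72 and 10.65 on day 10, and it fell by 1.18 ± 0.14 with -0.27 on its other probe. CYBA, a subunit of NADPH oxidase, fell by 0.69 ± 0.13, the piRNA pathway gene GTSF1 by 0.47 ± 0.16 and NBDY by 0.43 ± 0.14. The remaining called members DDIT4, TRIB3, DDIT3 and JUN are given above. CTCFL, the germline paralogue of CTCF, read 11.48 and 11.45 on day 17, against 11.68 and 11.81 on day 10 and did not pass (adjusted p = 0.145). Neither did CRIP1 (adjusted p = 0.058) or FOSB (adjusted p = 0.0685). In untreated cells CTCFL had read 6.29 ± 0.28 (mean and standard deviation of 2 arrays), a mean under the background threshold.

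Imprinted and oncofetal genes did not move as a group. Of 29 measured 5 were called higher, 9 lower and 15 did not pass (median -0.094). The higher calls numbered 3 without replicate 2 of either day, and the lower calls 5 without day 17 replicate 2. MEG3, an imprinted non-coding RNA, read 8.31 and 8.44 on day 17, against 9.52 and 9.57 on day 10 (-1.17 ± 0.17). NNAT, an imprinted proteolipid gene, read 8.90 and 8.80 on day 17, against 9.93 and 10.03 on day 10 (-1.13 ± 0.14). Each was lower on both day 17 arrays, as were the adaptor GRB10 (-0.96 ± 0.12) and H19 (-0.77 ± 0.14). A second probe of GRB10 read -0.0034. SALL4, an oncofetal transcription factor, read 11.06 and 11.08 on day 17, against 9.87 and 9.84 on day 10, higher on both day 17 arrays (1.21 ± 0.13). HMGA2, an oncofetal chromatin protein, rose by 0.80.

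Genes of viral defence were lower in part. In the interferon response list 15 of 39 measured genes were called lower, 3 higher and 21 did not pass (median -0.25). The share of all genes called lower was 15.4%, and 29 genes of the list were above background on at least 1 day. IFI27, a mitochondrial interferon-induced protein, read 8.59 and 8.27 on day 17, against 9.98 and 9.93 on day 10, and it fell by 1.52 ± 0.14. ISG15, a ubiquitin-like modifier, read 11.30 and 11.28 on day 17, against 12.52 and 12.50 on day 10, and it fell by 1.22 ± 0.12. IFI35 read 10.14 and 9.89 on day 17, against 11.48 and 11.50 on day 10, and it fell by 1.48 ± 0.12. The days did not overlap for any of the 3, and LGALS3BP (-1.05 ± 0.16) and IFI6 (-0.90 ± 0.14) fell also. Among NF-kB targets and chemokines 4 of 23 were called lower, a share near the 15.4% of all genes, and 19 did not pass. NFKBIA, the inhibitor that NF-kB induces, changed by -0.40 ± 0.11 and RELB by -0.43 ± 0.15. CXCL2 and CXCL8 were called lower without being above background on either day, so no size is given. The NF-kB calls numbered 1 or 2 without any single array, and the 3 higher interferon calls 1 without either day 10 array or day 17 replicate 1.

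In antigen presentation, 11 of 22 measured genes were called lower, none higher and 11 did not pass (median -0.26), against 15.4% of all genes lower. Fewer of the list were called lower without day 10 replicate 1. HLA-DMA, which loads peptide onto class II molecules, read 9.62 and 9.51 on day 17, against 11.20 and 11.20 on day 10 (-1.63 ± 0.12, adjusted p = 2e-11). HLA-E, a non-classical class I molecule, read 10.68 and 10.59 on day 17, against 11.98 and 11.95 on day 10 (-1.33 ± 0.11). The class I gene HLA-B read 10.53 and 10.34 on day 17, against 11.69 and 11.69 on day 10 (-1.25 ± 0.14). Both day 17 arrays were lower in each, and the class II chain HLA-DPA1, not above background on both day 17 arrays, fell at least 2.69-fold. HLA-DMB fell by 0.91 ± 0.19 and HLA-F by 1.17 ± 0.14, with -0.49 on another probe. HLA genes are close in sequence and probes for one may read another. The core of the interferon-stimulated response element, TTTC on either side of any 2 bases, was found on either strand in 6 of 19 promoters of this list (31.6%) against 2.51% of all. Those were HLA-F, B2M, TAP1, TAP2, TAPBP and PSMB10, and the stretch of HLA-F, one of the 6 largest falls of the list, is shown with the core in capitals, HLA-F at chr6:29723184-29723303 (plus strand).
HLA-F: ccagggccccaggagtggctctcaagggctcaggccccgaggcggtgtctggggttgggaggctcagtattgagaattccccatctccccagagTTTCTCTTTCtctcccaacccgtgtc

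**Figure D4:**
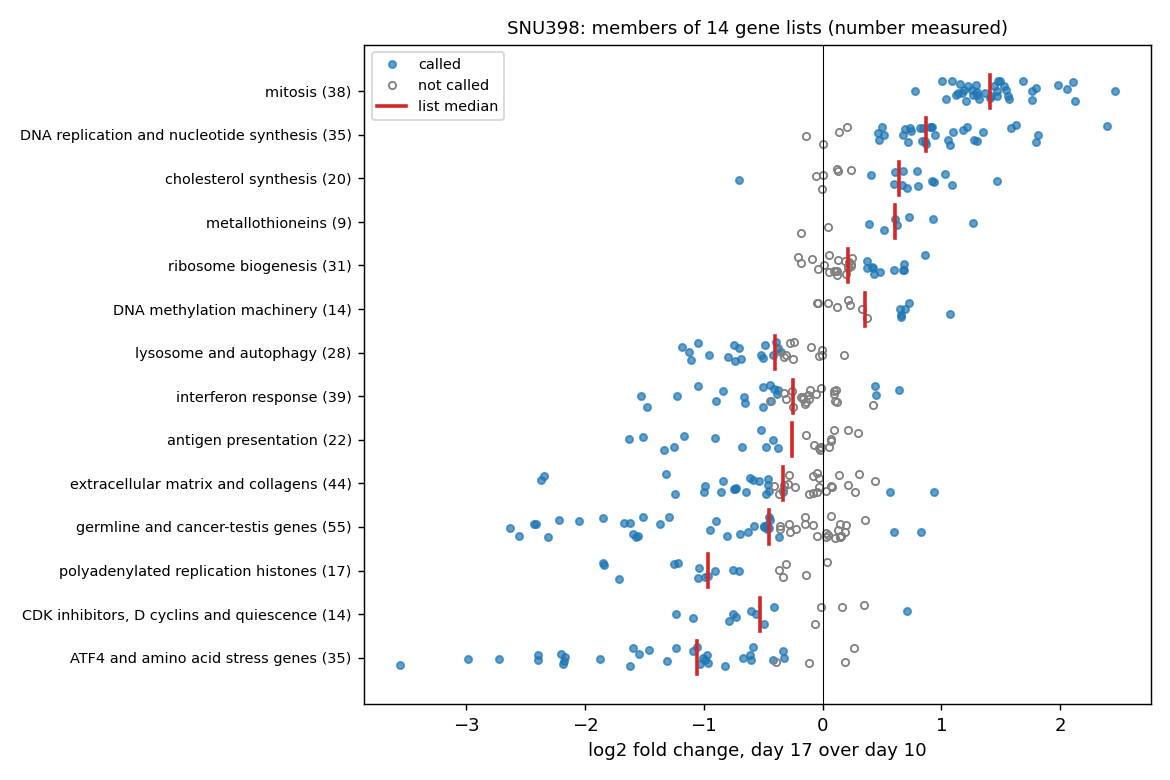
Log2 fold change of day 17 over day 10 in SNU398 (horizontal axis) for the measured members of 14 gene lists (vertical axis, number measured in brackets), filled where called and open where not, with a red bar at the list median. The mitosis list lies wholly to the right of 0 with a median of 1.41, and the ATF4 list has a median of -1.06.

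Among lipid genes, cholesterol synthesis was higher in large part, and fatty acid synthesis was mixed. In cholesterol synthesis, which dividing cells need for membranes, 13 of 20 measured genes were called higher, 1 lower and 6 did not pass (median 0.64). ACAT2, an early enzyme of the mevalonate route, read 12.75 and 12.72 on day 17, against 11.20 and 11.33 on day 10 (1.47 ± 0.13). HMGCS1, HMG-CoA synthase, read 11.92 and 12 on day 17, against 11.10 and 10.95 on day 10 (0.93 ± 0.12). Each day 17 array was higher for both, and MSMO1 (1.09 ± 0.12), EBP (1.03 ± 0.13), MVK (0.92 ± 0.13) and DHCR7 (0.80 ± 0.13) rose too. Other probes of MSMO1 read 0.90 and -0.20. Among 20 genes of fatty acid and lipid synthesis 5 were called higher, 6 lower and 9 did not pass (median -0.05). The desaturase FADS2 was among the 5 higher (0.57 ± 0.14). SCD, the stearoyl-CoA desaturase, read 14.18 and 14.20 on day 17, against 14.82 and 14.87 on day 10, and it fell by 0.66 ± 0.12, and the phosphatidate phosphatase LPIN1 fell by 0.84 ± 0.12. ACSS2, which makes acetyl-CoA from acetate, fell by 0.59 ± 0.12 on the probe used, with other probes at -0.091 and 0.086. The 5 higher calls of that list became 1 or 2 without either day 10 array or day 17 replicate 2.

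Metal and redox genes showed a rise of metallothioneins, the small cysteine-rich proteins that bind zinc and copper. Of 9 measured, 7 were called higher, none lower and 2 did not pass (median 0.61), with 3 called higher without day 17 replicate 1. MT2A read 12.74 and 12.54 on day 17, against 11.40 and 11.35 on day 10 (1.26 ± 0.17), and both day 17 arrays were higher. MT1G (0.93 ± 0.17), MT1H (0.72 ± 0.18), MT1X (0.62 ± 0.17) and MT1E (0.61 ± 0.15) rose by less, and these paralogues can share probes. MT3 was not above background on both day 10 arrays and was at least 1.41-fold higher. Of 24 NRF2 and glutathione genes 4 were called higher, 3 lower and 17 did not pass. The ferritin light chain FTL read 11.54 and 11.23 on day 17, against 13.52 and 13.38 on day 10, and it fell by 2.06 ± 0.11 (adjusted p = 5.91e-14) with -2.15 on its other probe. HMOX1, haem oxygenase, read 11.83 and 11.76 on day 17, against 12.96 and 12.99 on day 10, and it fell by 1.18 ± 0.14. Both were lower on both day 17 arrays, whereas thioredoxin reductase TXNRD1 (0.69 ± 0.11) and the pentose phosphate enzymes TKT (0.63 ± 0.11) and PGD (0.58 ± 0.12) rose.

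Among 32 genes of hypoxia and glycolysis, 6 were called higher, 8 lower and 18 did not pass. LOX, lysyl oxidase, which crosslinks collagen, read 7.48 and 7.57 on day 17, against 9.66 and 10.07 on day 10 (-2.34 ± 0.16, 5.07-fold lower). The glucose transporter SLC2A3 fell by 1.07 ± 0.13 and VEGFA, an angiogenic factor, by 0.94 ± 0.17, while the aldolase ALDOC rose by 0.94. In the list of TCA cycle and serine-glycine one-carbon genes 7 of 18 were called higher, 3 lower and 8 did not pass. GOT1, the cytosolic aspartate transaminase, fell by 1.13 ± 0.12 and IDH1 by 0.85 ± 0.13, while the mitochondrial IDH2 rose by 0.59 and MTHFD1 by 0.73. Oxidative phosphorylation gave 6 higher, 1 lower and 24 not called of 31, with SDHA at 0.73 ± 0.12 and NDUFA9 at 0.68 ± 0.12. Leaving out 1 array brought these higher calls to 3 for hypoxia (day 17 replicate 1), 4 for the TCA list (either day 10 array) and 3 for oxidative phosphorylation (either day 10 array or day 17 replicate 1).

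Genes for making ribosomes were higher in part. Of 31 ribosome biogenesis genes 11 were called higher, none lower and 20 did not pass (median 0.22), against 12% of all genes higher, and 7 and 6 were called without replicate 1 of day 10 or of day 17. The WD-repeat protein GRWD1 read 11.12 and 11.09 on day 17, against 10.27 and 10.20 on day 10 (0.86 ± 0.13), with both day 17 arrays higher. RRP9 (0.69 ± 0.14), PPAN (0.68 ± 0.16), MRTO4 (0.60 ± 0.15) and NOP14 (0.49 ± 0.13) rose too. Ribosomal protein genes themselves gave 6 higher, 2 lower and 45 not called of 53, a share below that of all genes. RPL13 was among the 6 on the probe used (0.77 ± 0.15), and its other probe read -1.06. Without day 17 replicate 1, 3 of these genes were called higher.

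Lysosome and autophagy genes were lower. Of 28 measured 17 were called lower, none higher and 11 did not pass (median -0.40), against 15.4% of all genes lower, and 11 were called without day 10 replicate 1 or day 17 replicate 2. MAP1LC3B, a core component of autophagosome membranes, read 11.28 and 11.17 on day 17, against 12.46 and 12.22 on day 10 (-1.11 ± 0.13). GABARAPL1, of the same family, read 8.79 and 8.95 on day 17, against 9.95 and 10.03 on day 10 (-1.12 ± 0.14). PSAP, a precursor of sphingolipid activators, read 13.87 and 14.09 on day 17, against 15.12 and 14.93 on day 10 (-1.05 ± 0.14). No arrays of the 2 days overlapped for these genes, and the hydrolases GLA (-0.96 ± 0.12) and CTSD (-0.80 ± 0.14) fell as well. CACGTG, the core of the element known to be bound by lysosomal regulators of the MiT family, was found in 5 of 22 promoters of the list (22.7%) against 8.57% of all, among them CTSD and LAMP1.

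The extracellular matrix list fell in part, with 20 of 44 measured genes called lower (median -0.33), against 15.4% of all genes. Another 2 were called higher and 22 did not pass. BGN, a small proteoglycan, read 7.55 and 7.34 on day 17, against 9.86 and 9.78 on day 10, 5.16-fold lower (-2.37 ± 0.16). Collagen genes COL5A1 (-1.24 ± 0.16), COL6A1 (-0.99 ± 0.13) and COL6A2 (-0.99 ± 0.16) fell, although a further probe of COL6A2 read 0.064. The laminin chain LAMA4 fell at least 2.17-fold and was not above background on both day 17 arrays. Of 27 YAP and TGF-beta responsive genes 3 were called higher, 3 lower and 21 did not pass. CCN2, a matricellular target of YAP, read 10.81 and 10.82 on day 17, against 11.93 and 12.07 on day 10 (-1.18 ± 0.13), whereas ANKRD1, another YAP target, rose by 0.77 and the inhibitor SMAD7 by 0.57.

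Cell identity genes showed few calls, and most of the hepatocyte and epithelial genes were not above background on either day. Among 55 hepatocyte genes 2 were called higher, 5 lower and 48 did not pass, a share below that of all genes, and 15 were above background on at least 1 day. APOE, an apolipoprotein that many cells make, read 10.71 and 10.68 on day 17, against 12.91 and 12.83 on day 10 and was 4.52-fold lower (-2.18 ± 0.12, adjusted p = 1.58e-13). CYP2E1 fell by 1.06 ± 0.16, FOXA3 by 0.68 ± 0.14, and TDO2, which breaks down tryptophan, rose by 0.61. Of 23 epithelial genes 1 was called higher, 4 lower and 18 did not pass, and 7 were above background on at least 1 day. The cadherin CDH1 changed by -0.58 ± 0.15 and the receptor ERBB3 by -1.10 ± 0.15, while CLDN3 was called lower without being above background on either day. Further probes of ERBB3 read -0.16 and 0.29, and 2 epithelial genes were called lower without day 10 replicate 2. Of 21 mesenchymal genes 2 were called higher, 2 lower and 17 did not pass. The integrin ITGA5 fell by 1.15 ± 0.16 and S100A4, a calcium-binding protein of motile cells, by 1.23 ± 0.17, with -0.42 on the other probe, while LGALS1 rose by 0.86 and the cadherin CDH2 by 0.47.

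Of 20 S100 and annexin genes 2 were called higher, 5 lower and 13 did not pass. S100P, a calcium-binding protein often raised in tumours, read 6.21 and 6.45 on day 17, against 8.66 and 8.69 on day 10. It was not above background at day 17 and fell at least 3.25-fold. S100A11 fell by 0.67 ± 0.12, and ANXA1 rose by 0.64. In the list of genes reported as hypermethylated in liver cancer 13 of 42 were called lower, 3 higher and 26 did not pass (median -0.22). TFPI2, a protease inhibitor, read 7.31 and 7.25 on day 17, against 8.55 and 8.77 on day 10, and it fell by 1.38 ± 0.20. KLHL35 fell by 1.03 ± 0.16. GPX3, a secreted glutathione peroxidase, read 8.39 and 8.56 on day 17, against 7.27 and 7.31 on day 10, a rise of 1.18. The days were separate for each of these genes.

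Apoptosis regulators gave 2 higher, 7 lower and 16 not called of 25. HRK, a BH3-only activator of cell death, read 9.48 and 9.30 on day 17, against 11.41 and 11.27 on day 10, and it fell by 1.95 ± 0.16. BCL2, which blocks that pathway, fell by 0.66 ± 0.15 and BAD by 0.62 ± 0.17, and the death receptor gene TNFRSF10A rose by 0.97. Of 26 Notch, WNT and Hedgehog genes 4 were called higher, 5 lower and 17 did not pass. The Notch ligand DLL1 fell by 1.16 ± 0.13, the receptor NOTCH3 by 1.03 ± 0.16 and the Notch targets HES1 and HES4 by 0.92 ± 0.13 and 0.93 ± 0.14. The ligand JAG1 and the WNT antagonist DKK1 rose, by 0.63 and 0.75, and 2 of the 4 higher calls were made without day 10 replicate 2 or day 17 replicate 1.

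Polycomb and heterochromatin enzymes gave 6 higher, 2 lower and 13 not called of 21. SUV39H1, which writes the H3K9 mark of constitutive heterochromatin, read 11.05 and 10.90 on day 17, against 9.62 and 9.63 on day 10 (1.35 ± 0.13). The heterochromatin proteins CBX1 and CBX5 rose by 0.71 and 0.51, and the demethylase KDM6B fell by 0.81 ± 0.16. Of 19 genes of nucleoside drug handling 6 were called higher, 3 lower and 10 did not pass. ADA, adenosine deaminase, fell by 0.84 ± 0.13, the deoxycytidylate deaminase DCTD by 0.50 ± 0.13 and NT5C2 by 0.50 ± 0.13, while NT5C rose by 0.55. Without day 10 replicate 1 the higher calls of the Polycomb and nucleoside lists numbered 3 each, and the Polycomb list had 2 without day 17 replicate 1. Housekeeping genes, set as a yardstick, gave 5 higher, 1 lower and 9 not called of 15 (median 0.14), against 12% of all genes higher. The share called higher was near that of ribosome biogenesis, 11 of 31. The transferrin receptor TFRC was named from this list, at 0.62 ± 0.13. Fewer housekeeping genes were called higher without day 10 replicate 2 or either day 17 array.

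Several of the largest changes fell outside these lists. HINT3, a hydrolase of the histidine triad family, read 11.27 and 11.46 on day 17, against 8.93 and 9.13 on day 10, 5.04-fold higher, but its other probe read -0.25. NBEAP1, a pseudogene, read 10.47 and 10.54 on day 17, against 8.47 and 8.52 on day 10 (2.01 ± 0.17). A probe annotated to the microRNA gene MIR599 read 10.29 and 10.26 on day 17, against 8.09 and 8.40 on day 10 (2.03 ± 0.15), which is no measure of the mature microRNA. BEX2, an X-linked adaptor, read 10.34 and 10.45 on day 17, against 12.90 and 13.14 on day 10 (-2.63 ± 0.14). TSC22D3, which glucocorticoids induce, read 8.10 and 7.96 on day 17, against 10.50 and 10.64 on day 10 (-2.54 ± 0.16), and its further probes read -0.67 and -2.55. VLDLR-AS1, an antisense RNA, read 8.20 and 8 on day 17, against 10.48 and 10.67 on day 10 (-2.48 ± 0.16). Each of these genes had its day 17 arrays apart from its day 10 arrays, which was a condition for naming it.

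Markers of other cell types were examined for signal from outside the line. Of 14 measured blood cell markers 4 were above background on at least 1 day and 2 were called higher, CD68, a lysosomal protein, at 0.82 ± 0.12 and HBA1, at least 1.46-fold, while CD14, a monocyte marker, and CD79A, a B cell marker, were above background on both days and not called. Their summed linear level was 4982 and 4462 on day 17, against 3226 and 3241 on day 10. The other 10, among them TYROBP, LYZ, CSF1R, CD3D, MS4A1 and HBB, were not above background on either day. Of 10 fibroblast and stellate cell markers 1 was called higher, LUM (0.94 ± 0.13), and 2 lower, COL3A1 (-0.73 ± 0.17) and PDGFRB, the receptor not above background. Their sum was 14778 and 17371 on day 17, against 17218 and 18551 on day 10. Of 6 endothelial markers ESAM was called higher (0.54 ± 0.15) and VWF lower without being above background. Of 8 genes that mark HepG2, ALB alone was above background, and AFP was called lower with neither day above background. Of 7 hepatocyte markers ALB, SERPINA1 and ASGR1 were above background, so most defining markers of hepatocytes were not seen in this line, and ASGR1 fell by 0.53 ± 0.12. The part of these markers in the other results was not tested.

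The same week was then compared between lines, with an interaction term that tests the difference of the differences. No array is shared, and both days of each line lie on 1 deposited percentile scale. In HepG2 4058 genes were called between day 17 and day 10, and in SNU475 91 were. The change in SNU398 differed from that in HepG2 for 3461 genes (22.6%), 1474 more positive and 1987 more negative. It differed from that in SNU475 for 2271 genes (14.8%), 941 more positive and 1330 more negative.

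**Figure D5:**
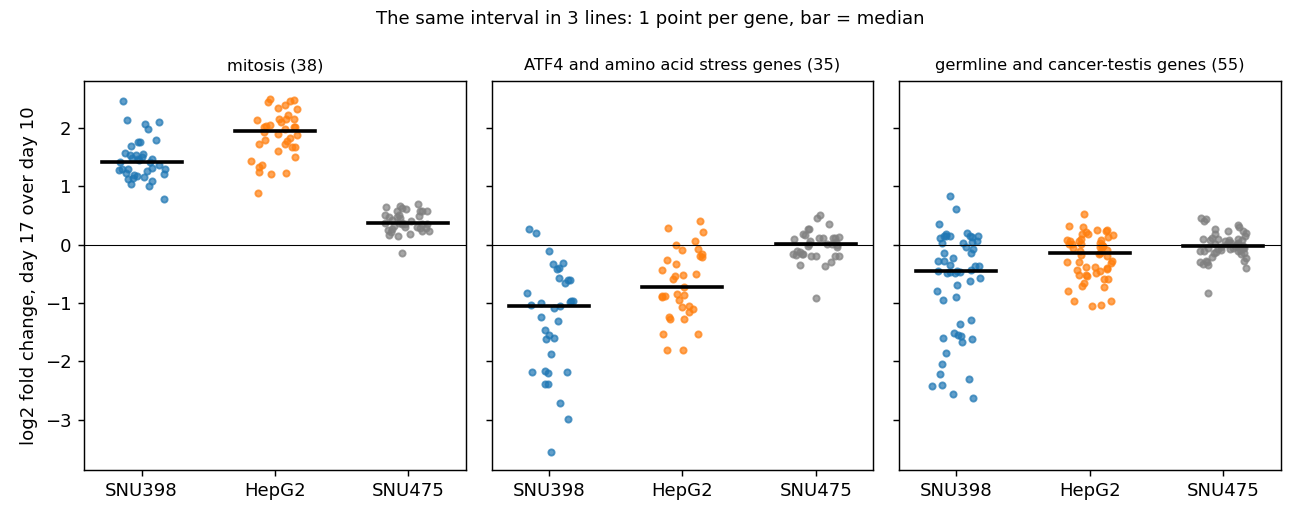
Log2 fold change of day 17 over day 10 (vertical axis) for the members of 3 gene lists in SNU398, HepG2 and SNU475 (horizontal axis), 1 point per gene and a bar at the median. Mitosis medians are 1.41, 1.95 and 0.36, and ATF4 list medians are -1.06, -0.72 and 0.006.

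Mitotic genes rose in SNU398 and HepG2. The mitosis list had a median of 1.41 in SNU398, 1.95 in HepG2 and 0.36 in SNU475, with 38, 38 and 8 of the 38 genes called higher. The difference from HepG2 was called for 13 of them, each more negative in SNU398, and that from SNU475 for 37, each more positive. KIF20A changed by 2.46 ± 0.12 in SNU398 and 2.47 ± 0.12 in HepG2, with no difference called (-0.011 ± 0.17, adjusted p = 0.972). In SNU475 it changed by 0.70 ± 0.12, a difference of 1.76 ± 0.17 (adjusted p = 2.4e-08). RRM2 had a log2 fold change of 2.40 ± 0.18 in SNU398 and -0.0029 ± 0.18 in SNU475, a difference of 2.40 ± 0.26. In HepG2 it changed by 1.81 ± 0.18, and that difference did not pass (adjusted p = 0.106). Genes of the DNA methylation list went partly the same way. UHRF1 changed by 0.73 ± 0.14 in SNU398 and 2.22 ± 0.14 in HepG2, a called difference of -1.49 ± 0.19. DNMT3B had 0.21 ± 0.12 in SNU398, which did not pass, and 1.46 ± 0.12 in HepG2, and the difference of -1.25 ± 0.17 was called.

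The fall of ATF4 targets was set against the other lines. The list median was -1.06 in SNU398, -0.72 in HepG2 and 0.006 in SNU475. Of its 35 genes 31, 24 and 1 were called lower in these lines and none higher, so most of the list fell in HepG2 as well. The difference from HepG2 was negative for 14 genes and positive for 4, and the difference from SNU475 negative for 27. DDIT4 had log2 fold changes of -3.56 ± 0.11 in SNU398, -0.21 ± 0.11 in HepG2 and 0.13 ± 0.11 in SNU475, and both differences passed (adjusted p = 2.95e-14 and 7.94e-16). INHBE had log2 fold changes of -4.72 ± 0.13 in SNU398, -1.18 ± 0.13 in HepG2 and -0.55 ± 0.13 in SNU475. PCK2, lower by 2.40 ± 0.12 in SNU398, had -0.084 ± 0.12 in HepG2 and 0.12 ± 0.12 in SNU475. Germline genes gave 20 negative and 3 positive differences from HepG2, and 22 negative and 1 positive from SNU475. VCX in SNU398 (-2.43 ± 0.16) differed by -1.94 ± 0.22 from HepG2 (-0.48 ± 0.16) and by -2.76 ± 0.22 from SNU475 (0.33 ± 0.16). Antigen presentation gave 8 and 6 negative differences and none positive, with HLA-DMA at -1.63 ± 0.12 in SNU398, 0.38 ± 0.12 in HepG2 and -0.22 ± 0.12 in SNU475.

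Metabolic lists differed between the lines in size. Cholesterol synthesis had a median of 0.64 in SNU398 and 1.48 in HepG2, with 14 negative differences from HepG2, and -0.12 in SNU475, with 12 positive differences and 1 negative. Metallothioneins had medians of 0.61 in SNU398, 2.57 in HepG2 and 0.17 in SNU475, and 8 of 9 differed negatively from HepG2. Ribosome biogenesis had medians of opposite sign, 0.22 in SNU398 and -0.32 in HepG2, with 15 positive differences. Some single genes also took opposite directions. LOX fell by 2.34 ± 0.16 in SNU398 and rose by 1.40 ± 0.16 in HepG2, a difference of -3.74 ± 0.23. SLC7A14, an amino acid transporter family member, changed by -0.93 ± 0.18 in SNU398 and 2.13 ± 0.18 in HepG2, a difference of -3.06 ± 0.26, with 1 of 2 HepG2 arrays above background at day 10. DLK2, a homologue of the imprinted ligand DLK1, changed by 0.75 ± 0.13 in SNU398 and -1.90 ± 0.13 in HepG2, a difference of 2.65 ± 0.18, although its further probes read 0.15 in SNU398.

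MC1R, a melanocortin receptor, changed by 1.11 ± 0.14 in SNU398 and -0.95 ± 0.14 in HepG2, a difference of 2.07 ± 0.20. ERRFI1, a feedback inhibitor of EGFR, changed by 0.76 ± 0.14 in SNU398 and -1.38 ± 0.14 in HepG2, a difference of 2.14 ± 0.20. TRIM51 changed by 0.44 ± 0.13 in SNU398 and -1.79 ± 0.13 in HepG2, a difference of 2.24 ± 0.19. The glutamate transporter SLC1A7 was above background in SNU398 at day 17 alone, at least 1.09-fold higher, and its change differed from that in HepG2 (adjusted p = 4.92e-10). Against SNU475, HINT3 had the most positive difference (4.25 ± 0.18), since it changed by -1.91 ± 0.13 there on the probe used. ABL2, a cytoskeletal kinase, changed by 0.97 ± 0.16 in SNU398 and -0.97 ± 0.16 in SNU475, a difference of 1.94 ± 0.23, and its further probes read 0.14 and 0.72 in SNU398. MIR599 and NBEAP1 differed from both lines, by 1.67 ± 0.21 and 1.94 ± 0.24 from HepG2 and by 2.09 ± 0.21 and 2.02 ± 0.24 from SNU475. The NBEAP1 probe was not above background on any day 17 or day 10 array of those lines, so its difference is set against undetected signal.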

How the data were processed

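The lines were obtained from ATCC, and RNA was extracted with Trizol, purified with an RNeasy kit including DNase I and labelled as biotinylated cRNA with the Ambion MessageAmp kit, per the labels' protocols. The authors deposited linear probe intensities of 47230 Illumina probes, and the sources used here do not give their normalization. The number of arrays limits the precision. In the files 72 columns are named by barcodes that match no sample, and they were not used.

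Arrays were grouped by line and day from their titles, with 2 arrays in each of 17 groups. The deposited intensities of all 34 arrays were corrected with limma 3.58.1 under R 4.3.3 (normexp, offset of 50), quantile normalized and put on the log2 scale. The background threshold of 6.97 adds 1.645 times the spread of values under the mode (0.298) to the mode itself (6.48), both read from the averaged sorted array. Probes above it on both arrays of at least 1 group and with 1 gene symbol were kept (20999), and each gene is its kept probe with the highest mean (4335 genes have more than 1). Symbols come from the platform annotation, updated through the RefSeq table of GRCh38.p14.

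One linear model with a mean per group was fitted with lmFit and eBayes (17 residual degrees of freedom, 10.9 from the prior). P-values are two-sided and adjusted by Benjamini-Hochberg over 15297 genes in each contrast, and a call is an adjusted p under 0.05. The procedure was tested on simulated data. Deposited percentiles of SNU398 at day 17 and day 10 coincide, and those of untreated SNU398 differ. Gene lists are described by counts and medians, without set tests. Members and lists were chosen with earlier results of these data known.

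Genes are named by a rule: the 15 largest called increases and 15 largest decreases with arrays apart and above background, up to 6 called members of each list, a set of methylation and cell cycle genes, the earlier day 3 genes, the 5 most positive and 5 most negative differences from each line, and every called marker. Exceptions are marked in the text as chosen after their values were seen. Alternatives varied the correction, the normalization, the filter, the probe of a gene, the arrays fitted, the variance prior, a replicate block and single arrays. Promoters are RefSeq sequences for the first start listed, searched on both strands.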

Additional observations from a re-analysis of the deposited data

Results flagged for a closer look

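The change from day 10 to day 17 in SNU398 was set against the same change in another line with an interaction term in limma, and the results below had an adjusted p under 0.05 for that difference. They are the genes named for the size of their change in SNU398 or for the size of the difference between lines. Values are log2 fold change in SNU398 minus that in the other line, so a positive value means a more positive change in SNU398. No explanation of these differences was tested.

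Among genes of the cell cycle and nucleotide synthesis the difference was called against SNU475 alone for KIF20A (1.76), RRM2 (2.40), DLGAP5 (1.68), HMMR (1.62), CCNA2 (1.41), CDCA3 (1.35), NCAPG (0.96), KIFC1 (1.62) and PLK1 (1.33). Outside that group, ABL2 differed from SNU475 by 1.94. A difference called against SNU475 and not against HepG2 is not shown to differ between those lines.

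More positive changes in SNU398 than in both lines were found for HINT3 (0.93 against HepG2 and 4.25 against SNU475), MIR599 (1.67 against HepG2 and 2.09 against SNU475), NBEAP1 (1.94 against HepG2 and 2.02 against SNU475) and PIMREG (0.68 against HepG2 and 1.27 against SNU475). Further genes of this kind were NUDT1 (0.93 against HepG2 and 1.75 against SNU475), TYMS (0.72 against HepG2 and 1.42 against SNU475), SLC1A7 (2.25 against HepG2 and 0.85 against SNU475) and TRIM51 (2.24 against HepG2 and 0.79 against SNU475). The same held for ERRFI1 (2.14 against HepG2 and 0.74 against SNU475) and MC1R (2.07 against HepG2 and 1.32 against SNU475).

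More negative changes in SNU398 than in both lines were found for INHBE (-3.55 against HepG2 and -4.17 against SNU475), DDIT4 (-3.35 against HepG2 and -3.68 against SNU475), NUPR1 (-3.05 against HepG2 and -2.99 against SNU475), CHAC1 (-2.46 against HepG2 and -2.73 against SNU475) and TKTL1 (-1.57 against HepG2 and -1.80 against SNU475). They were found as well for BEX2 (-0.72 against HepG2 and -2.49 against SNU475), VCX2 (-2.17 against HepG2 and -2.51 against SNU475), TSC22D3 (-1.91 against HepG2 and -2.37 against SNU475), VLDLR-AS1 (-2.27 against HepG2 and -2.63 against SNU475) and VCX (-1.94 against HepG2 and -2.76 against SNU475). Others with both differences negative were VCX3A (-1.90 against HepG2 and -2.60 against SNU475), PCK2 (-2.31 against HepG2 and -2.52 against SNU475), SESN2 (-1.80 against HepG2 and -2.55 against SNU475), BGN (-2.19 against HepG2 and -2.61 against SNU475) and S100P (-1.71 against HepG2 and -1.43 against SNU475). The last of these was LOX (-3.74 against HepG2 and -2.19 against SNU475).

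Against HepG2 alone the difference was called for DLK2 (2.65) and SLC7A14 (-3.06).

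Some of these differences rest on signal that is not above background, so their sizes are those of the fit and are no measure of a full change. SLC1A7 was above background on 0 of 2 SNU398 arrays at day 10 and S100P on 0 of 2 at day 17. In HepG2, NBEAP1 and CHAC1 were above background on no array of either day, VLDLR-AS1 on 1 array of day 10 alone, and SLC7A14 on 1 of 2 arrays of day 10. In SNU475, NBEAP1 was above background on no array of either day.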

How the results depend on the processing

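The 4187 calls between day 17 and day 10 ranged from 3412 to 4645 over other settings and from 2954 to 3143 without 1 array. Calls of at least 2-fold ranged from 549 to 581 without 1 array, and 333 in place of 540 was counted when genes had to be above background on all arrays, a filter that also removes genes at background in untreated SNU398, on other days or in the other lines. Of the 30 germline genes called lower, 26 were above background on both days, and 3 of the 55 measured passed the filter. Under it germline genes gave 2 lower calls in place of 30, extracellular matrix 7 in place of 20, interferon 8 in place of 15, imprinted 3 in place of 9, genes hypermethylated in liver cancer 2 in place of 13, apoptosis regulators 3 in place of 7, hepatocyte genes 1 in place of 5, epithelial genes 0 in place of 4 with 1 gene tested, Notch, WNT and Hedgehog genes 2 in place of 5 and the earlier day 3 genes 6 in place of 11. Metallothioneins gave 4 higher calls in place of 7, imprinted genes 3 in place of 5, Notch, WNT and Hedgehog genes 1 in place of 4, and immediate early genes and genes hypermethylated in liver cancer 1 each in place of 3. With the mean of probes heat shock gave 2 higher calls in place of 4 and ribosomal proteins 5 lower in place of 2, with the deposited values YAP and TGF-beta genes gave 5 higher in place of 3, and with no filter fatty acid genes gave 3 higher in place of 5. Other list counts of 1 or 2 moved by up to 2 calls in either direction under single settings or arrays. Differences from HepG2 ranged from 2752 to 2868 without 1 array and from 2636 to 3897 otherwise, and those from SNU475 from 1558 to 1786 and from 1926 to 2704. Replicate numbers are shared between days, but same-numbered arrays did not deviate together across genes (r = 0.012 in SNU398, -0.066 in HepG2 and -0.039 in SNU475). Each r rests on 1 difference between arrays per day and cannot decide whether same-numbered arrays were paired. With the replicate block 4126 genes were called, 3411 differed from HepG2 and 2178 from SNU475. Of 245 named genes, the 30 with the largest changes kept call and direction under every setting in which they were tested. These 30 were chosen for large called changes in the same data, so this is no further evidence. A gene that a filter removed, such as NBEAP1 or S100P when all arrays had to be above background, was not tested under it. Over 3107 pairs of a named gene and a setting, 2940 kept direction and side of the threshold, 151 lost the call, 15 gained it and 1 reversed, RPL13 with the mean of its probes (-0.15, adjusted p = 0.462). Without some single array 54 named genes lost the call, among them DNMT3A, MBD2, HSPE1, HSP90AB1, MT1E, MT1H, MT1X, CDH1, CDH2, COL3A1, NFKBIA, RELB, GTSF1, NBDY, TDO2, ESAM, HBA1, BAD, CBX5, NT5C2, MRTO4, NOP14, TRIM51 and SLC1A7. With the mean of probes HSPE1 read 0.028 (adjusted p = 0.95), MT1E 0.27 (adjusted p = 0.14) and ACSS2 -0.21 (adjusted p = 0.0814). Genes near background have compressed differences, and 117 calls concern genes above background on neither day.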
